A study of Homo sapiens with 6 samples.

Results

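The Kruppel-like factors are transcription factors that end in 3 zinc fingers of the C2H2 kind and bind GC-rich and CACCC sequences in gene control regions. They are sorted by the cofactors they bind. KLF2, KLF4, KLF5 and KLF6 belong to the group that mostly activates transcription, KLF3 to the group that represses through the corepressor CtBP, and KLF9, KLF10, KLF11 and KLF13 to the group that recruits the SIN3 corepressor complex. Several of them, among them KLF2, KLF4, KLF6 and KLF10, are quickly induced by serum, stress or cytokines, and in epithelia KLF4 is linked to the exit from division and KLF5 to proliferation. KLF4 is also one of the factors used to reprogram somatic cells to pluripotency.

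The 9 genes KLF2, KLF3, KLF4, KLF5, KLF6, KLF9, KLF10, KLF11 and KLF13 were taken by gene name from a table of 58174 genes, and all 9 passed the filter on low counts that left 19040 genes for testing. RNA was measured by sequencing in PC9, an established human lung adenocarcinoma cell line, in 3 libraries from cells given an antagomir against tsRNA-5001a (knockdown) and 3 from cells given a negative control antagomir (control). Antagomirs are modified antisense oligonucleotides that block small RNAs, and a tsRNA is a fragment of a transfer RNA. Both groups therefore carry an antagomir. The sources used here give neither its dose nor the time of harvest. They do not say that the 3 libraries of a condition were separate cultures, so p-values reflect only library-to-library spread, part or all of which may be technical. The tsRNA itself is not measured in gene counts, and its knockdown was not checked. In bulk RNA, fewer cells that make a transcript and less of it per cell cannot be told apart.

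Libraries held 32342017 to 40066223 counts in the knockdown group and 34623672 to 39615278 in the control group. Knockdown and control libraries lay apart on the first principal component (41.0% of variance). Epithelial genes (EPCAM, KRT8, KRT18, KRT19, CDH1 and EGFR) summed to 8970 to 11600 CPM (counts scaled to a common library total) in knockdown libraries and 10700 to 11900 CPM in control libraries. The lung lineage genes NKX2-1, SFTPB, SFTPC and NAPSA summed to 2.30 to 2.96 CPM in knockdown libraries and 1.41 to 2.67 CPM in control libraries, so the label is borne out by epithelial genes and hardly by lung lineage genes. Endothelial markers summed to 31.4 to 40.6 CPM in knockdown libraries and 20.8 to 37.3 CPM in control libraries, nearly all of it from CDH5 and PECAM1, while KDR, TEK and CLDN5 were close to 0. Fibroblast markers summed to 36.9 to 53.5 CPM in knockdown libraries and 39.3 to 46.0 CPM in control libraries, nearly all of it from COL1A1. Immune markers summed to 4.89 to 5.95 CPM in knockdown libraries and 4.03 to 4.43 CPM in control libraries.

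KLF4 stood out among the 9 genes. It was 2.59-fold higher in knockdown cells, and it was the 1 member of 9 past an adjusted p of 0.05, against 1.17% of all genes tested. The other 8 also had positive fold changes, of 1.06-fold for KLF2 to 1.46-fold for KLF9, and none of these passed the test. For KLF9, KLF10 and KLF13 the knockdown libraries lay above all control libraries, as for 13.4% of all genes tested.

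The promoters of 3 members are shown here. They are KLF4, the member past the adjusted p threshold, and KLF2, a close relative whose groups of libraries overlapped. The third is KLF11, which holds a full cyclic AMP response element (CRE, TGACGTCA). Whether these sequences bear on the differences in level was not tested. Each sequence runs from 250 bases before to 50 bases after the annotated start and is taken from RefSeq on GRCh38.p14. The KLF4 window is chr9:107489720-107490019 on the minus strand, that of KLF2 chr19:16324576-16324875 on the plus strand, and that of the second of 2 KLF11 starts chr2:10043971-10044270 on the plus strand. Capitals mark the CRE, its half-site TGACG, the E-box CACGTG and the MEF2 site, on either strand. A half-site on the opposite strand reads CGTCA.
KLF4: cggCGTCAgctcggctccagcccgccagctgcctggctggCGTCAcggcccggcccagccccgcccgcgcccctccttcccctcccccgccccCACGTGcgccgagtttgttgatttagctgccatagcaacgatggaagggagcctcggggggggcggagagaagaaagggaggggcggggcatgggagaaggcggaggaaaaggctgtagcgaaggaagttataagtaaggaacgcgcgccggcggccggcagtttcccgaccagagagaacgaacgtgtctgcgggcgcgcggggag
KLF2: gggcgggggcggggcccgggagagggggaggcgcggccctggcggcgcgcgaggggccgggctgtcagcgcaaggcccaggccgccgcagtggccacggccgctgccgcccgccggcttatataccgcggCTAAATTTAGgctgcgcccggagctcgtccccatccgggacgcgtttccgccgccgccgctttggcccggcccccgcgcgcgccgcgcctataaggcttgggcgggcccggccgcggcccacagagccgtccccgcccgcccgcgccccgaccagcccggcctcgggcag
KLF11: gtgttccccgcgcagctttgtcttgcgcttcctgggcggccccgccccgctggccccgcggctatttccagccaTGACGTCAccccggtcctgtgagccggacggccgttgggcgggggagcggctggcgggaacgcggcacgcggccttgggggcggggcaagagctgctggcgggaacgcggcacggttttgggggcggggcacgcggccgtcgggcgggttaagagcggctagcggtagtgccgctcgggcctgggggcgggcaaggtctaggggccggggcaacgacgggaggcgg

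The KLF4 window holds 2 half-sites, which begin 247 and 210 bases before the start, and an E-box 157 bases before it. The KLF2 window holds none of these but has a MEF2 site 120 bases before the start. MEF2 factors are activated by the kinase ERK5 and are known regulators of KLF2. A MEF2 site was found in 0.578% of 34796 promoter windows of the same length, a half-site in 24.5%, an E-box in 7.20% and a CRE in 1.84%. The 7 members whose windows were used have 9 windows in all. Of these members, 4 held a half-site (KLF4, KLF5, KLF11 and KLF13) and 3 an E-box (KLF4, KLF6 and KLF11). A CRE was held by 1 and a MEF2 site by 1. The half-sites of KLF11 are the 2 overlapping copies inside its CRE. No window used for a member held an AP-1 site (TGANTCA, in 7.73% of all windows) or a CArG box, the site of serum response factor (1.30%). The GC box GGGCGG, a sequence that SP and Kruppel-like factors themselves can bind, was in 7 of the 9 windows of these members, against 44.9% of all windows. The CACCC box was in 4 of the 9, against 59.8%. The KLF4, KLF2 and KLF11 windows shown were 69.0%, 80.7% and 75.3% G and C, where the median window had 58.7%, and the KLF9 window had 32.7%. A match is a description of the letters, and these data do not measure binding. Windows for KLF3 and KLF10 were not used here. Windows on chromosome 8, where KLF10 lies, were left out of the counts of members but not of the shares over all windows.

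KLF4 (ENSG00000136826) lies on chromosome 9 at 107484852 to 107490482 on the minus strand. Its level was 67.3, 69.2 and 66.9 CPM in knockdown libraries 1 to 3, against 25.2, 36.6 and 16.8 CPM in control libraries 1 to 3. Every knockdown library was above every control library, and the knockdown libraries lay within a few CPM of each other while the control libraries were spread widely. The means were 67.8 ± 1.21 CPM in knockdown and 26.2 ± 9.94 CPM in control cells (SD, n = 3 each). On the log2 scale the difference was 1.37 (standard error 0.25, 95% interval 0.80 to 1.94), and edgeR's quasi-likelihood test gave a Benjamini-Hochberg adjusted p of 0.0466 over all genes. Of all genes tested, 1.1% were higher and 0.0735% lower at that threshold.

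**Figure D1:**
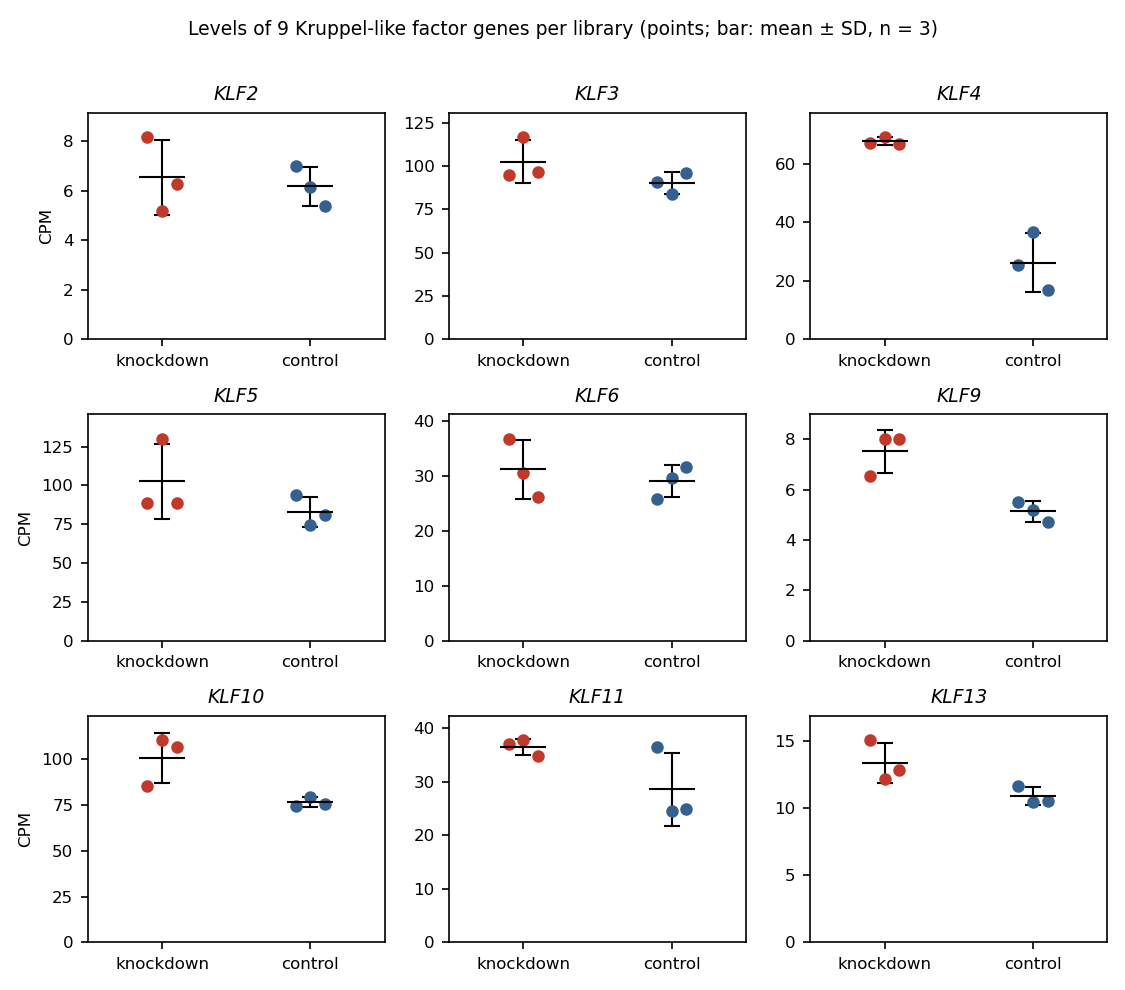
Level of each of the 9 Kruppel-like factor genes in CPM (vertical axes, each starting at 0) in the 3 knockdown and 3 control libraries; points are libraries 1 to 3 from left to right and bars are the mean and SD. KLF4 is between 66.9 and 69.2 CPM in the knockdown libraries and spreads between 16.8 and 36.6 CPM in control libraries. KLF9, KLF10 and KLF13 also show groups that do not overlap, as 13.4% of all genes tested do in that direction.

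The KLF4 call sits close to the threshold. It was kept under 7 of 16 other ways of processing the data and lost under 9, while the log2 fold change stayed between 1.13 and 1.68. Leaving out control library 3, the lowest, gave 1.13 and an adjusted p of 0.0764. Leaving out control library 2, the highest, gave 1.68 and 0.0242, the only one of the 6 left-out libraries after which the call was kept. With the replicate number as a block the adjusted p was 0.102, and DESeq2 gave 2.02e-05.

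**Figure D2:**
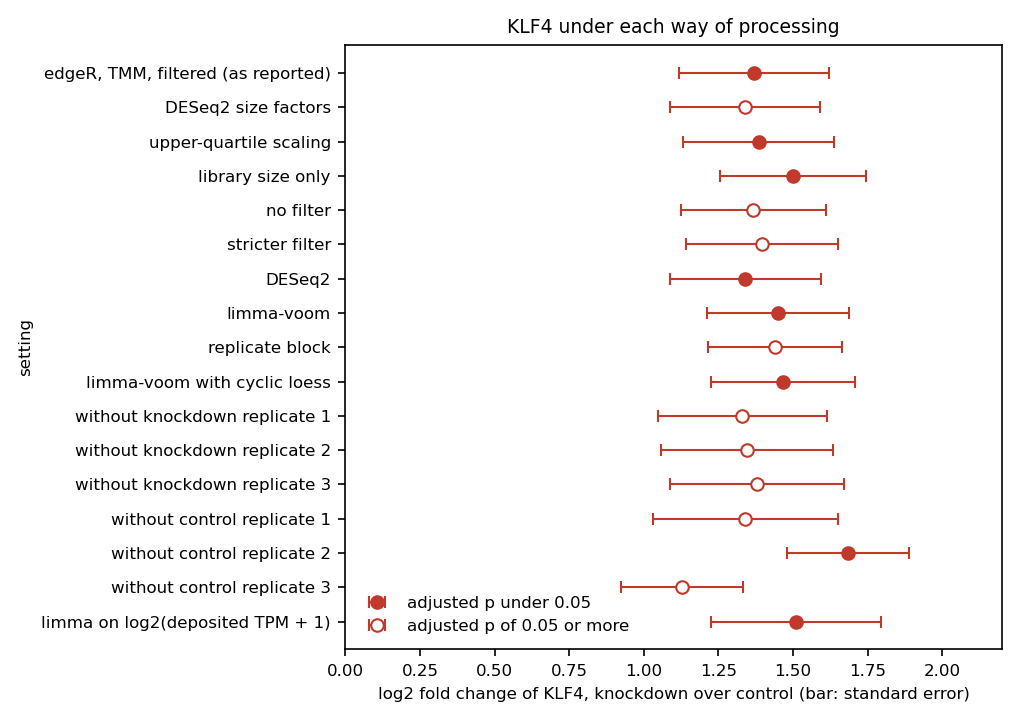
Log2 fold change of KLF4, knockdown over control (horizontal axis; bars are standard errors), under the reported fit and 16 alternatives (vertical axis). All values lie between 1.13 and 1.68, filled points have an adjusted p under 0.05, and 9 of the alternatives do not.

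KLF2 (ENSG00000127528; chromosome 19, 16324817 to 16327874, plus strand), known for its control of quiescence in endothelial cells and lymphocytes, was at 8.16, 5.18 and 6.27 CPM in knockdown libraries and 6.98, 6.14 and 5.39 CPM in control libraries. The groups overlapped fully, with knockdown libraries holding both the highest and the lowest value. Its log2 fold change was 0.08 (95% interval -0.41 to 0.58, edgeR adjusted p 0.879), and the direction turned in 3 of the 16 alternatives: without knockdown library 1, without control library 3 and with cyclic loess scaling.

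KLF5 (ENSG00000102554; chromosome 13, 73054976 to 73077542, plus strand), a factor of proliferating epithelium, was at 88.5, 130.2 and 89.0 CPM in knockdown libraries, against 93.8, 74.7 and 81.1 CPM in control libraries. Knockdown library 2 was above the rest, and the other libraries of both groups ran together. The log2 fold change was 0.30 (95% interval -0.11 to 0.71, edgeR adjusted p 0.438), and without knockdown library 2 it was 0.082.

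KLF6 (ENSG00000067082; chromosome 10, 3775996 to 3785281, minus strand), which activates CDKN1A and is described as a tumour suppressor, was at 36.7, 30.4 and 26.2 CPM in knockdown libraries and at 25.9, 29.6 and 31.5 CPM in control libraries. The ranges overlapped. The log2 fold change was 0.10 (95% interval -0.28 to 0.48, edgeR adjusted p 0.796), and it was -0.081 without knockdown library 1.

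KLF3, the CtBP-binding repressor, differed little. KLF3 (ENSG00000109787; chromosome 4, 38664196 to 38701042, plus strand) was at 94.7, 117 and 96.3 CPM in knockdown libraries and 90.6, 83.9 and 96.0 CPM in control libraries. Knockdown library 2 was the highest, and knockdown library 1 lay below control library 3. The log2 fold change was 0.19 (95% interval -0.11 to 0.48, edgeR adjusted p 0.514). It was 0.071 without knockdown library 2, 0.31 with library size scaling and 0.40 on log2(TPM + 1). KLF3 shares 688 bases with the antisense gene KLF3-AS1, which had 36, 37 and 39 counts in knockdown libraries and 52, 40 and 30 in control libraries. The sources used here do not say whether counting used strand, so reads of that stretch cannot be assigned to one of the genes, but KLF3 itself had 2706 to 4099 counts per library.

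In the SIN3-binding group, KLF9, KLF10 and KLF13 had groups of libraries that did not overlap, as 13.4% of all genes tested did in that direction, and whether this group differs from the other members was not tested. KLF9 (ENSG00000119138; chromosome 9, 70384597 to 70414624, minus strand), a repressor induced by glucocorticoids and thyroid hormone, was at 6.55, 8.04 and 8.01 CPM in knockdown libraries and 5.53, 5.21 and 4.71 CPM in control libraries. Each knockdown library was above each control library. Its log2 fold change of 0.55 came after that of KLF4 in size (standard error 0.18, 95% interval 0.14 to 0.95), and its edgeR adjusted p of 0.198 did not pass (unadjusted 0.0139).

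KLF10 (ENSG00000155090; chromosome 8, 102648779 to 102655902, minus strand), first described as a TGF-beta inducible early gene, was at 85.4, 111 and 107 CPM in knockdown libraries, against 74.5, 79.5 and 75.9 CPM in control libraries. Control libraries were close together, and knockdown library 1 lay between them and the other knockdown libraries. The log2 fold change was 0.40 (standard error 0.13, 95% interval 0.09 to 0.70), with an edgeR adjusted p of 0.209 and an unadjusted p of 0.0165.

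KLF11 (ENSG00000172059; chromosome 2, 10042849 to 10054836, plus strand), the second TGF-beta inducible early gene, was at 37.0, 37.8 and 34.8 CPM in knockdown libraries and 36.5, 24.5 and 24.9 CPM in control libraries. Control library 1 lay among the knockdown libraries and the remaining controls lay well below. The log2 fold change was 0.35 (95% interval -0.06 to 0.76, edgeR adjusted p 0.371) and reached 0.56 without control library 1. KLF13 (ENSG00000169926; chromosome 15, 31326855 to 31435665, plus strand), which activates CCL5 in T cells, was at 15.1, 12.2 and 12.9 CPM in knockdown libraries and 11.7, 10.5 and 10.6 CPM in control libraries. Its groups did not overlap but came close, and its log2 fold change was 0.30 (95% interval -0.05 to 0.65, edgeR adjusted p 0.3785). Without knockdown library 1 it was 0.16, and on log2(TPM + 1) it was 0.47.

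Read together, 4 of the 9 members had every knockdown library above every control library and 0 had the reverse, where 13.4% of all tested genes did so upward and 10.8% downward. At an unadjusted p under 0.05, 3 members were higher and 0 lower, against 9.77% and 6.71% of all genes. All 9 log2 fold changes were above 0, which held for 55.9% of all genes, and they centred on 0.30 against 0.05 for all genes tested (medians). Among the 9183 genes in the abundance range of the members the median was 0.015 and 52.1% were above 0. Scaling by library size alone gave 0.42 for the members and 0.17 for all genes, and cyclic loess scaling gave 0.34 for the members and -0.001 for all genes. The members were chosen with earlier results of these data known, so these counts and medians are descriptions.

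Deviations of the members from their group means did not run in 1 direction over the 6 libraries. They ran together for KLF2 and KLF13 (Pearson r 0.95) and for KLF3 and KLF5 (0.865), and opposite for KLF10 and KLF13 (-0.932). These are descriptions over 6 libraries, in which depth and scaling are shared. KLF10 and KLF13 thus both had higher knockdown libraries, but not the same ones: knockdown library 1 was the lowest for KLF10 and the highest for KLF13.

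The wider family gave no further calls. Of the 9 remaining Kruppel-like factors in the table, 5 were tested and 0 passed with edgeR, DESeq2 or limma-voom. By edgeR, 2 were higher and 0 lower at an unadjusted p under 0.05, against 9.77% and 6.71% of all genes tested. KLF7, a factor of the activator group, was at 27.3, 35.6 and 29.6 CPM in knockdown libraries and 26.8, 23.0 and 21.6 CPM in control libraries, a difference of 0.37 on the log2 scale (edgeR adjusted p 0.296) that was 0.24 without knockdown library 2. KLF15, a glucocorticoid-induced metabolic regulator, had 24, 12 and 19 counts in knockdown libraries and 0, 4 and 10 in control libraries. These did not overlap. KLF15 passed the filter on low counts only through its knockdown libraries. The filter thus fixed in part the lack of overlap and its place among the 2 higher genes. At so few counts the fitted log2 difference of 1.86 had a wide interval, 0.028 to 3.70 (95%, edgeR adjusted p 0.298). The difference was 2.95 without control library 3. KLF8, KLF12 and KLF16 had overlapping groups, with log2 fold changes of 0.41, -0.02 and 0.15.

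The genes too low for testing were KLF1, KLF14, KLF17 and KLF18. KLF18 had 12, 7 and 33 counts in knockdown libraries and 0 in each control library. Taking 3 counts over the 3 control libraries as the floor, 0.0278 CPM, the pooled knockdown level of 0.454 CPM was 16.3 times that floor. The floor covers counting error in the control libraries only. Knockdown library 3 held 33 of the 52 knockdown counts, and error in the knockdown level was not allowed for. KLF18 was not tested, since too few libraries reached the count minimum. KLF1, the erythroid factor, had 11 counts in knockdown library 2 and 0 in the rest. KLF17 had 6, 2 and 6 counts in knockdown libraries and 2, 4 and 0 in control libraries. KLF14 had 0 counts in all 6 libraries, which allows up to 0.0135 CPM over them.

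The SP factors, which share the zinc finger fold and the GC-box sites of the family, were evenly divided in direction. The table held 9, of which 6 were tested and 3 were above 0, with a median of 0.008, and 0 passed with edgeR, DESeq2 or limma-voom or at an unadjusted p under 0.05. SP3 was at 69.1 ± 5.13 CPM in knockdown and 84.9 ± 18.2 CPM in control cells (SD, n = 3 each), and SP4 at 11.4 ± 1.89 CPM in knockdown and 9.02 ± 1.66 CPM in control cells, with edgeR adjusted p of 0.429 and 0.449. The log2 difference of SP3, -0.30, was -0.19 without control library 1 and -0.47 without control library 2, and that of SP4, 0.34, was 0.19 without control library 2 and 0.22 without knockdown library 2. Whether Kruppel-like and SP factors differ in response was not tested.

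**Figure D3:**
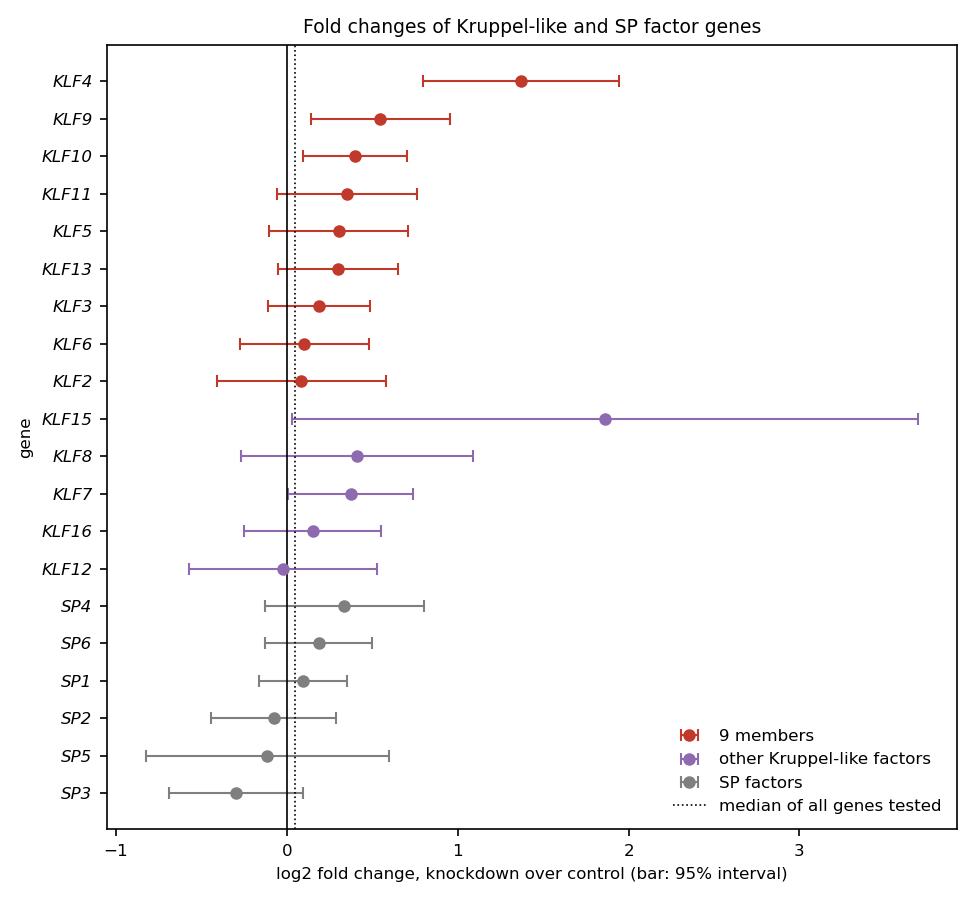
Log2 fold change, knockdown over control (horizontal axis; bars are 95% intervals), of the 9 members, of 5 other Kruppel-like factor genes and of 6 SP factor genes (vertical axis). The intervals of KLF4, KLF9, KLF10, KLF7 and KLF15 lie above 0, and the dotted line marks the median of all genes tested, 0.05. KLF15 passed the filter on low counts only through its knockdown libraries.

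Levels were compared between genes in TPM, the authors' measure of transcript abundance that accounts for gene length. In knockdown cells the order of the 9 means was KLF5 (59.5 ± 18.2 TPM), KLF4 (57.0 ± 7.86), KLF10 (56.9 ± 10.4), KLF3 (38.9 ± 5.59), KLF11 (16.9 ± 1.24), KLF6 (14.9 ± 1.83), KLF2 (5.86 ± 1.09), KLF13 (3.99 ± 0.478) and KLF9 (2.66 ± 0.406; SD, n = 3 each). Neighbours whose knockdown libraries overlapped were KLF5 and KLF4, KLF4 and KLF10, KLF10 and KLF3, and KLF11 and KLF6. The order in control cells was KLF5 (44.4 ± 7.86 TPM), KLF10 (38.1 ± 2.02), KLF3 (29.3 ± 4.09), KLF4 (20.4 ± 8.02), KLF11 (11.3 ± 3.36), KLF6 (11.1 ± 1.503), KLF2 (5.14 ± 0.749), KLF13 (2.61 ± 0.437) and KLF9 (1.55 ± 0.182; SD, n = 3 each). There, the neighbours whose libraries overlapped were KLF5 and KLF10, KLF3 and KLF4, KLF4 and KLF11, and KLF11 and KLF6. KLF4 thus overlapped KLF5 and KLF10 in knockdown cells. In control cells it overlapped KLF3 and KLF11, and also KLF6, through control library 3 (11.3 TPM). The means of the other 8 members had the same order among themselves in both groups.

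**Figure D4:**
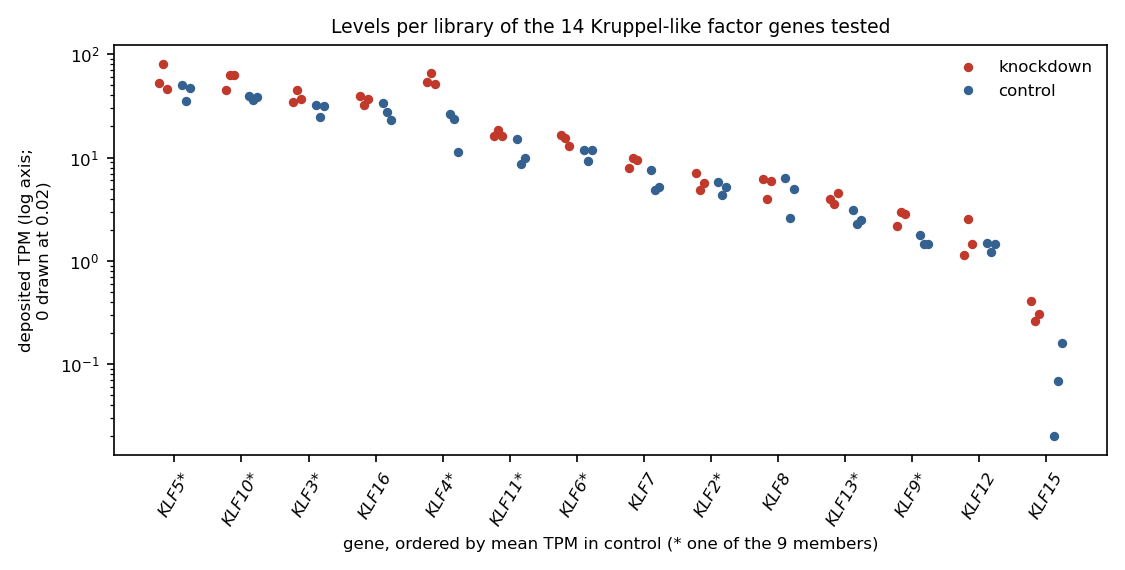
Deposited TPM (vertical axis, logarithmic, with 0 drawn at 0.02) in the 3 knockdown and 3 control libraries for the 14 Kruppel-like factor genes tested, ordered by their control mean. KLF4 averages 57.0 TPM in knockdown cells, at the level of KLF5 and KLF10, and 20.4 TPM in control cells, below them.

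The deposited TPM and the counts did not run in parallel for every member. The CPM per TPM of KLF4 was 1.26, 1.05 and 1.30 in knockdown libraries and 0.953, 1.56 and 1.49 in control libraries, so the highest was 1.64 times the lowest. KLF4 was highest among controls in library 1 by TPM (26.5) and in library 2 by CPM. By TPM, 7 of the 9 members had every knockdown library above every control library, where 27.0% of all genes tested did so and 2.95% had the reverse. The values of all genes moved too: on log2(TPM + 1) with limma the median difference was 0.21 over all genes and 0.47 over the members.

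Genes around the family were read from lists of cofactors, upstream pathways and targets chosen for the known biology of these factors. The lists were also chosen with earlier results of these data known, so counts within them are descriptions. Of 20 genes described as targets of Kruppel-like factors 18 were tested, and 1 of the 18, THBD, passed, against 1.17% of all genes tested. THBD encodes thrombomodulin, an anticoagulant receptor that KLF2 and KLF4 activate in endothelial cells. It was at 3.803, 5.09 and 3.66 CPM in knockdown libraries and 1.31, 1.33 and 1.57 CPM in control libraries. All knockdown libraries were above all control libraries, as for 13.4% of all genes tested. The difference on the log2 scale was 1.57 (standard error 0.23, edgeR adjusted p 0.0211). It was past the threshold in 9 of 17 settings and not when any 1 library was left out (edgeR adjusted p 0.0552 to 0.0862).

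The target list as a whole, THBD included, was mixed, with 10 of 18 above 0, against 55.9% of all genes tested. Its median was 0.05 on the log2 scale. After THBD, and named here after their values were seen, came, in order of p, the keratin gene KRT4, the endothelial nitric oxide synthase gene NOS3 and the cell cycle inhibitor gene CDKN1A. KRT4 was at 5.04, 4.59 and 5.40 CPM in knockdown libraries and 1.63, 1.43 and 2.78 CPM in control libraries (edgeR adjusted p 0.0681). NOS3 was at 7.84, 4.95 and 8.34 CPM in knockdown libraries and 3.26, 2.91 and 4.29 CPM in control libraries (edgeR adjusted p 0.125). CDKN1A was at 86.0, 76.0 and 82.4 CPM in knockdown libraries and 57.7, 62.5 and 60.6 CPM in control libraries (edgeR adjusted p 0.139). Their groups did not overlap, as for 13.4% of all genes tested in that direction. In the whole list of 18, THBD included, 5 genes had every knockdown library above every control library. Another 2, whose values are not given, had the reverse, as 10.8% of all genes tested did. KRT4, NOS3 and CDKN1A did not pass with edgeR. DESeq2, which called 701 genes where edgeR called 223, called KRT4 and NOS3 besides THBD. THBD and NOS3 are also endothelial genes. Of 6 endothelial markers, PECAM1 was at 11.9, 13.4 and 11.4 CPM in knockdown libraries and 9.465, 9.08 and 10.9 CPM in control libraries, without overlap. CDH5 averaged 22.4 ± 5.84 CPM in knockdown and 20.8 ± 8.31 CPM in control cells (SD, n = 3 each), with overlap. VWF, KDR, TEK and CLDN5 averaged 0.348, 0, 0.0451 and 0.0157 CPM in knockdown cells and 0.183, 0.0207, 0 and 0 CPM in control cells. VWF did not overlap either, with 11, 16 and 12 counts in knockdown libraries and 10, 4 and 6 in control libraries. Nor did TEK, with 2, 2 and 1 counts in knockdown libraries and 0 in each control library. Of all genes tested, 13.4% lay apart in that direction, and TEK was too low for testing. No marker passed with edgeR, and the part of these genes in the result was not tested.

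KLF9 is a known target of the glucocorticoid receptor, and 8 of 10 genes of a list of that receptor and its targets were tested. In all 8 every knockdown library was above every control library, where 13.4% of all genes did so, and their log2 fold changes had a median of 0.42. The list was chosen with earlier results of these data known, so the count is a description only. With edgeR, DESeq2 or limma-voom 0 passed. By edgeR, 6 were higher at an unadjusted p under 0.05, against 9.77% of all genes tested. DUSP1, a phosphatase of MAP kinases, was at 36.1, 35.9 and 34.0 CPM in knockdown libraries and 25.4, 27.0 and 19.5 CPM in control libraries (edgeR adjusted p 0.154). TSC22D3, a classical glucocorticoid-induced gene, was at 44.6, 44.1 and 41.7 CPM in knockdown libraries and 25.6, 35.6 and 33.4 CPM in control libraries (edgeR adjusted p 0.204). The receptor gene NR3C1, named after its values were seen, was at 45.7, 56.3 and 41.6 CPM in knockdown libraries and 31.5, 36.3 and 38.9 CPM in control libraries (edgeR adjusted p 0.242).

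For serum response factor, its cofactors and early response genes, 0 of 16 passed with edgeR (median 0.09). By edgeR, 2 were higher at an unadjusted p under 0.05, against 9.77% of all genes tested. These were FOSB, at 8.85, 7.21 and 6.93 CPM in knockdown libraries and 4.20, 4.31 and 3.27 CPM in control libraries (edgeR adjusted p 0.0683), and FOS, at 15.6, 24.2 and 20.7 CPM in knockdown libraries and 12.99, 10.97 and 11.05 CPM in control libraries (edgeR adjusted p 0.112). Both passed with DESeq2 and neither with limma-voom. EGR1 and JUNB, named after their values were seen, had log2 fold changes of 0.019 and -0.027.

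**Figure D5:**
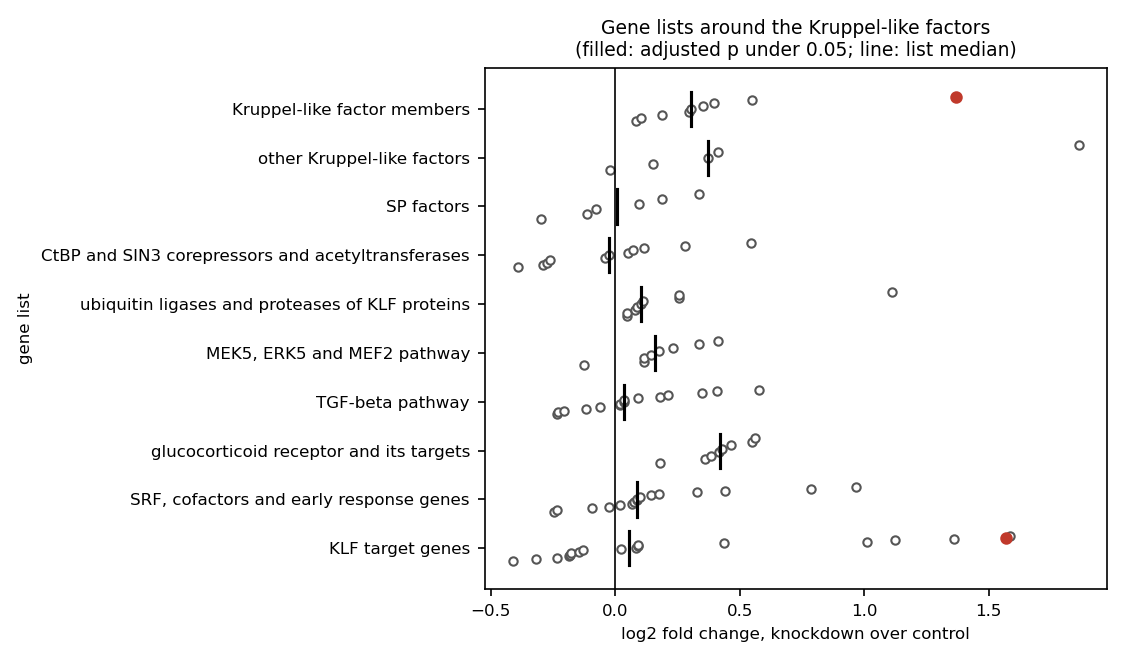
Log2 fold change, knockdown over control (horizontal axis), of every tested gene in the list of 9 members and in 9 related lists (vertical axis); filled points have an adjusted p under 0.05 and vertical lines are list medians. KLF4 and THBD are the filled points, and the 8 glucocorticoid genes all lie above 0, as 55.9% of all genes tested do.

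Among ligases and proteases that act on Kruppel-like factor proteins, 0 of 9 passed with edgeR. All 9 were above 0, as 55.9% of all genes tested were, and their median was 0.10 against 0.05 for all genes tested. SMURF1, a ubiquitin ligase reported to act on KLF2, was at 59.4, 119 and 120 CPM in knockdown libraries and 54.5, 39.6 and 43.8 CPM in control libraries. Knockdown library 1 was close to the controls and the others were far above them. Its log2 fold change was 1.11 (edgeR adjusted p 0.106), and it passed with DESeq2 and not with limma-voom. It was the 1 gene of the list at an unadjusted p under 0.05 by edgeR, where 9.77% of all genes tested were higher. WWP1, a ligase of KLF2 and KLF5, showed a log2 difference of 0.26 (edgeR adjusted p 0.449), which was 0.15 without knockdown library 2 and 0.155 without control library 2.

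Upstream pathways gave no calls. In the MEK5, ERK5 and MEF2 pathway, 0 of 8 genes passed with edgeR, DESeq2 or limma-voom or at an unadjusted p under 0.05 (median 0.16), and MAP3K2 and MEF2D had log2 fold changes of 0.41 and 0.23. Without knockdown library 2 MAP3K2 was at 0.13, and without knockdown library 1 MEF2D was at 0.11. In the TGF-beta pathway 0 of 15 passed with edgeR, DESeq2 or limma-voom (median 0.03). By edgeR, 1 was higher at an unadjusted p under 0.05, against 9.77% of all genes tested. That gene, the receptor TGFBR2, was at 65.6, 69.8 and 59.0 CPM in knockdown libraries and 39.1, 33.2 and 58.2 CPM in control libraries (edgeR adjusted p 0.230). SMAD7, which KLF10 and KLF11 repress and which is named after its values were seen, differed by 0.034 on the log2 scale. Among the CtBP and SIN3 corepressors and acetyltransferases 0 of 11 passed with edgeR, DESeq2 or limma-voom (median -0.02). By edgeR, 2 were lower at an unadjusted p under 0.05, against 6.71% of all genes tested. These were HDAC1 and CTBP1. HDAC1 was at 266 ± 3.798 CPM in knockdown and 318 ± 17.2 CPM in control cells. CTBP1 was at 77.1 ± 7.48 CPM in knockdown and 94.2 ± 6.39 CPM in control cells (SD, n = 3 each). Their CPM groups did not overlap, as for 10.8% of all genes tested in that direction, and edgeR adjusted p were 0.263 and 0.303. The log2 differences of HDAC1 and CTBP1 were -0.26 and -0.29, but -0.14 and -0.17 with library size scaling and -0.036 and -0.0013 on log2(TPM + 1), where their groups overlapped.

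The genes most like KLF4 over the 6 libraries were sought among 8603 other protein-coding genes of at least 4 log2 CPM. The 5 with the highest Pearson correlation of log2 CPM were CHD2 (0.993), PTPN3 (0.993), EFHD1 (0.988), DUSP1 (0.986) and CTNS (0.969), and 48 genes were above 0.9. By deviations from the group means they were NDUFA13 (0.998), CHD2 (0.982), GNB1 (0.970), TMEM216 (0.966) and OSGEP (0.965). CHD2, which encodes a chromatin remodelling helicase, was the only gene in both, and showed a log2 difference of 0.92 (edgeR adjusted p 0.0982). With 6 libraries in 2 groups such values are descriptions only.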

How the data were processed

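The labels put 3 libraries of PC9 cells in the knockdown group and 3 in the control group. Per the labels' protocols, the authors checked the quality of Illumina reads, aligned them and counted reads per gene. Which aligner and counter were used, and whether strand was, the sources used here do not say. Counts, TPM and FPKM per gene were deposited side by side, and the deposited FPKM were not used. The build named in the submitters' processing notes is hg19. GENCODE 29 on GRCh38 shares 57836 genes with the table, and 56044 (96.9%) had the same position, so the positions printed, taken from the table, are GRCh38 positions.

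Genes were kept by filterByExpr (minimum count 10), scaled by TMM and tested over all 19040 genes with edgeR 4.0.16 in R 4.3.3 (quasi-likelihood test, Benjamini-Hochberg adjustment at 0.05, no covariate). CPM use the TMM-scaled totals. Standard errors were derived from the F statistic and the fitted difference, and intervals from these and the test's degrees of freedom. The scripts were tested on simulated data. Alternatives were other scalings and filters, DESeq2 1.42.0, limma-voom (limma 3.58.1), a block for replicate number, single libraries left out and an adjusted p of 0.01. Cyclic loess scaling, limma on log2(TPM + 1) and the alternatives for genes outside the 9 members were chosen after seeing the data.

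The members and lists were chosen with earlier results of these data known. All 9 members are named, with every called gene of each other list or otherwise its 2 genes of lowest p. The other Kruppel-like and SP factors could be named too, and exceptions are stated. Promoters came from RefSeq (GRCh38.p14), and windows of 7 of 9 members were used. Plots used matplotlib 3.10.9 under Python 3.11.15. Precision is set by 3 libraries per group and by the library totals given.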

Additional observations from a re-analysis of the deposited data

How the results depend on the processing

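Against 223 genes past an adjusted p of 0.05, there were 147 with no filter, 141 with a stricter filter, 701 with DESeq2, 397 with limma on log2(TPM + 1), 45 at an adjusted p of 0.01 and 34 with the replicate block. With 1 library left out there were 64 to 114 genes, and the other scalings and limma-voom stayed within 1.5 times of 223. Between libraries of one number the deviations from group means correlated at 0.01, -0.08 and -0.03, which gives no sign of pairing. Of the 9 members, 1 passed first, and 0 passed with DESeq2 size factors, no filter, a stricter filter, the replicate block or an adjusted p of 0.01, and 0 to 1 with a library left out. At an unadjusted p under 0.05 there were 3 members by edgeR. KLF4 had adjusted p from 2.02e-05 to 0.139 over 17 settings. The log2 fold change of KLF2 was -0.035 with cyclic loess and -0.15 to 0.21 with a library left out, and that of KLF6 was -0.081 to 0.21 with a library left out; neither passed anywhere, and the cause was not tested. KLF3, KLF4, KLF5, KLF9, KLF10, KLF11 and KLF13 were above 0 in all 17 settings. THBD was called in 9 of 17, and lost its call with the block (adjusted p 0.116), with cyclic loess (0.0522) and with any 1 library left out (0.0552 to 0.0862). With 3 libraries per group and this spread, KLF9, KLF10, KLF11 and KLF13 did not pass in any setting tried.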
